A study of Mus musculus with 140 samples.

Results

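Livers of *Per1,2-/-* mice, which carry null alleles of *Per1* and *Per2*, were compared with wild-type (WT) livers for the mean level of every gene over 48 hours of constant dark. The comparison holds 46 *Per1,2-/-* and 48 WT libraries of the 140 in the series, and all libraries of both genotypes were used, as their labels give them. The mice were male C57BL/6, 3 months old, kept in 12-hour light and 12-hour dark cycles for at least 14 days and then in constant dark, with food at all times. Liver was sampled at 4-hour steps of circadian time (CT) up to CT44, where CT0 opens the first day that would have been light, with 4 libraries at each of the 12 time points, and 3 at CT8 and CT20 of *Per1,2-/-* mice. The knockout is written as one of the whole body, so a difference in the liver need not come from the liver clock, and constant dark and free feeding were shared by both genotypes. The sources used here do not give which parts of *Per1* and *Per2* the alleles lack, nor how many mice stand behind each library, so p-values measure the spread between these libraries, part of which may be technical. A further genotype, *Bmal1-/-*, enters only as values set beside those of the named genes.

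The circadian clock is a feedback loop of transcription. CLOCK and BMAL1 (the product of *Arntl*) bind E-box elements and activate the Period and Cryptochrome genes, whose proteins gather with casein kinases and repress CLOCK and BMAL1. A linked loop runs through the nuclear receptors REV-ERB (*Nr1d1*, *Nr1d2*) and ROR, which repress and activate *Arntl* through RORE elements, and the PAR bZIP factors DBP, TEF and HLF drive further genes through D-box elements. PER1 and PER2 are the repressors without which the loop does not run in constant dark, and in liver the clock is known to time glucose, lipid, bile acid and drug metabolism.

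The promoters of 5 clock genes are shown as examples that hold matches to these 3 elements, which many other clock genes reported below did not. For genes with several annotated starts, the promoter with the most matches is shown. The other promoters of *Per1* and *Arntl* held none. They are read 5′ to 3′ along the gene from RefSeq on GRCm38.p6, the assembly known as mm10, and lie before the annotated start, except for *Arntl*, where the bases shown lie after it. Capitals mark matches to 1 of 3 elements, each searched on both strands. The E-box was CACGTG. The D-box was TTACGTAA or its variant TTATGTAA. The RORE was TAGGTCA. None of these runs overlap in the stretches shown.
*Per1* (chr11:69098699-69098948, plus strand): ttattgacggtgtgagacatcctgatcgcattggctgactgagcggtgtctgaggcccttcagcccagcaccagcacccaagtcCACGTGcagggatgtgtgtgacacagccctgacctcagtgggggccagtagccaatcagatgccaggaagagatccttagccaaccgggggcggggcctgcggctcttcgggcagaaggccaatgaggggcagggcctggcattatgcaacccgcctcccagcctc
*Ciart* (chr3:95882229-95882478, minus strand): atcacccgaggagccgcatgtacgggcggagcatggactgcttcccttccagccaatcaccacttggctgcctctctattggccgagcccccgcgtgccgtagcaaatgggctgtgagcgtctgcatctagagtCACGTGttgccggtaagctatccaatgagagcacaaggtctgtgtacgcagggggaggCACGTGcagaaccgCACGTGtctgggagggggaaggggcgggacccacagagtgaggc
*Tef* (chr15:81802423-81802672, plus strand): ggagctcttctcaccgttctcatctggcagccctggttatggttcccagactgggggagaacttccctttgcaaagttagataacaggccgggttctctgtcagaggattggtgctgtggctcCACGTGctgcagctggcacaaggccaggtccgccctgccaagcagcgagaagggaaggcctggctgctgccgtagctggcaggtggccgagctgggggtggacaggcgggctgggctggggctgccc
*Per3* (chr4:151044666-151044915, minus strand): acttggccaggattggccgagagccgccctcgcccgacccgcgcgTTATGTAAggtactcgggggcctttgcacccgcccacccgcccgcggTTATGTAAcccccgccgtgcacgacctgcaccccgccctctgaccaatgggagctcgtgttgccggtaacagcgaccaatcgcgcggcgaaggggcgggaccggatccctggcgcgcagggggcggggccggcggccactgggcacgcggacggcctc
*Arntl* (chr7:113207529-113207558, plus strand): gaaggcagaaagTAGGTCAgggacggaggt

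The *Per1* promoter held 1 E-box, which begins 166 bases before the start, the *Ciart* promoter 3 (116, 58 and 44 bases before) and the *Tef* promoter 1 (127 bases before). The *Per3* promoter held 2 D-boxes, 205 and 158 bases before the start, and for *Arntl* 30 bases are shown around a RORE that begins 31 bases after it. Over 300 bases from 250 before to 50 after the start, 8.09% of 27025 genes held this E-box, 1.23% the D-box and 2.97% the RORE. Of 30 genes of the clock lists with a promoter in the table, 7 held the E-box (*Ciart*, *Coq10b*, *Cry1*, *Lonrf3*, *Per1*, *Tef* and *Tspan4*), 2 the D-box (*Coq10b* and *Per3*) and 3 the RORE (*Arntl*, *Leo1* and *Nfil3*). Of the 30 genes with the largest differences, 23 were in the table, and 3, 0 and 3 of these held them. A match is a run of letters and not a site shown to be bound.

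Between the genotypes, the mean level differed for most genes, and for most of these by little. Of 11123 genes tested, 3645 (32.8%) were higher in *Per1,2-/-* and 3328 (29.9%) lower at a Benjamini-Hochberg adjusted p under 0.05 in edgeR's quasi-likelihood test with time point as a block. The median called gene differed by 1.3-fold, and 5368 of the 6973 differed by less than 1.5-fold. At least 2-fold differences were fewer, 239 higher genes (2.15%) and 120 lower (1.08%). In 22 genes (0.198%) every *Per1,2-/-* library was above every WT library, and in 18 (0.162%) every one was below. Among the 359 genes that differed 2-fold, 251 did so in one direction at all 12 time points. The mean level of 226 of the 239 higher genes lay above the highest time point mean of WT, and that of 96 of the 120 lower genes lay below the lowest one. For 3026 genes (27.2%) the difference between the genotypes varied over the 12 time points (edgeR, 11 interaction terms, adjusted p under 0.05), 133 of the 359 among them. Below, levels are CPM, counts scaled to 1000000 per library with factors set by TMM, and differences are fitted log2 ratios of *Per1,2-/-* over WT with their standard error (SE), so that 1 is a doubling. The adjusted p is that of this edgeR test over all 11123 genes.

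The deposited tables hold 1 genotype each, so genotype and table cannot be told apart, and small differences over many genes need that in view. Library totals ranged from 1678097 to 4364594 counts in WT, with a median of 3114382, and *Per1,2-/-* totals from 1442278 to 5643470, with a median of 3687565. Genes ordered by the GC content of the last 500 transcript bases showed a gradient, with a median log2 difference of 0.12 in the fifth of lowest GC and -0.13 in the fifth of highest, while the median over all genes was 0.02. With GC corrected for in each library, an alternative chosen after the data were seen, 3683 genes were higher and 3212 lower. The 6 libraries that correlated least with the median profile of their genotype (r from 0.921 to 0.963) were 5 of *Per1,2-/-* (CT4 C, CT8 C, CT12 A, CT16 A and CT32 A) and 1 of WT (CT44 A). Without them, also chosen after the data were seen, 3525 genes were higher and 3333 lower.

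The samples were liver by their markers. All 12 hepatocyte markers were measured and together held 94444 to 177846 CPM (median 147163) in *Per1,2-/-* and 111556 to 166564 CPM (median 139153) in WT. Liver endothelial markers summed to 269 to 440.2 CPM (median 335) in *Per1,2-/-* and 313 to 536 CPM (median 399) in WT, and 10 of 15 were lower and 3 higher. Cholangiocyte markers went the other way, at 510.2 to 2231 CPM (median 761) against 407 to 1074 CPM (median 600.5), with 9 of the 10 measured higher and 1 lower. In bulk tissue, fewer cells of a type and less RNA per cell cannot be told apart. Counts of called markers stand beside 32.8% of all genes higher and 29.9% lower. Kupffer cell markers (5 of 15 higher, 4 lower) and stellate cell markers (2 of 13 higher, 4 lower) were split, and lymphocyte markers summed to medians of 29.3 and 31.1 CPM. Of 10 neutrophil markers 3 were measured, *S100a8*, *S100a9* and *Csf3r*, with a sum of 1.67 to 39.2 CPM (median 6.11) in *Per1,2-/-* and 0.629 to 13.4 CPM (median 3.35) in WT, and 1 of 13 markers of exocrine pancreas. Of 11 erythroid markers, *Alas2* and *Slc4a1* were measured, with a sum of 17.3 to 207 CPM (median 122) in *Per1,2-/-* and 116 to 395 CPM (median 233) in WT, and the part of blood in other results was not tested. Of 8 adipocyte markers, *Cfd*, *Fabp4* and *Plin4* were measured, at 12.9 to 287 CPM (median 82) and 13.2 to 165 CPM (median 28.1), and *Adipoq*, which defines these cells, was not among the genes tested.

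The targeted genes came first, as a check on the labels. *Per1* counts lay at 4.36 to 27.5 CPM (median 9.96) in *Per1,2-/-* and 1.47 to 67.4 CPM (median 17) in WT, and the fitted difference was -0.76 ± 0.19 (adjusted p = 2.44e-04). *Per2* counts lay at 11.2 to 40.9 CPM (median 19.5) in *Per1,2-/-* and 0.646 to 38.2 CPM (median 12) in WT, with a difference of 0.72 ± 0.14 (adjusted p = 3.72e-06). Both transcripts were thus still counted at their 3′ ends in every *Per1,2-/-* library, and neither was absent. A tag at the 3′ end does not check a deletion elsewhere in the gene, so these counts neither show nor deny the loss of the proteins. The daily swing was smaller in *Per1,2-/-* than in WT, and the difference between the genotypes varied with time for both genes (adjusted p = 4.71e-15 for *Per1* and 1.36e-16 for *Per2*, edgeR interaction test). *Per1* time point means ran between 3.55 CPM at CT4 and 55.6 CPM at CT36 in WT and between 7.2 and 16.7 CPM in *Per1,2-/-*, and those of *Per2* between 1.62 CPM at CT4 and 31.6 CPM at CT40 in WT and between 15.7 and 25.5 CPM in *Per1,2-/-*. On the scale from the lowest to the highest WT time point mean, the *Per1,2-/-* mean stood at 13.9% for *Per1* and 60.7% for *Per2*.

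Among the 10 measured genes of the repressor limb, 7 were higher in *Per1,2-/-* and 1 lower (median log2 difference 0.38), beside 32.8% and 29.9% of all genes. *Per3*, the Period gene left intact, lay at 11.6 to 34.7 CPM (median 20.3) in *Per1,2-/-* and 0 to 23.7 CPM (median 5.45) in WT. It was 3.21-fold higher (1.68 ± 0.16, adjusted p = 1.37e-16) and higher at 12 of 12 time points, and its mean level stood at 124% of the WT daily range, above the WT peak. The Cryptochromes split. *Cry2* differed by 0.52 ± 0.06 (adjusted p = 4.07e-13), at 36.6 to 67.5 CPM (median 48.1) in *Per1,2-/-* and 15.8 to 54.7 CPM (median 33.8) in WT, with a mean at 103% of the WT range, and the libraries overlapped. *Cry1* did not pass the test (0.03 ± 0.12, adjusted p = 0.837). *Ciart*, which encodes a further repressor of CLOCK and BMAL1 and whose promoter holds 3 E-boxes, differed by 0.96 ± 0.25 (adjusted p = 4.59e-04), with a *Per1,2-/-* mean at 36.7% of the WT range. *Bhlhe40* (DEC1), an E-box repressor, differed by 0.65 ± 0.09 (adjusted p = 9.67e-10) with its mean at 100.4%. Of the casein kinase genes, whose products set the stability of PER, *Csnk1e* was higher (0.24 ± 0.08), though not without the libraries lettered C (0.11), while *Csnk1d* (-0.00 ± 0.03) did not pass the test.

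In the activating limb and the nuclear receptor loop, 2 of 6 measured genes were higher and 2 lower, beside 32.8% and 29.9% of all genes. *Arntl* counts lay at 1.64 to 10.3 CPM (median 5.54) in *Per1,2-/-* and 0.674 to 33.9 CPM (median 11) in WT. The fitted difference was -0.88 ± 0.18 (adjusted p = 9.94e-06), with the *Per1,2-/-* mean at 16% of the WT range, within the spread of the WT libraries. *Nr1d1* (REV-ERBα) lay at 14.3 to 51.7 CPM (median 26.2) in *Per1,2-/-* and 2.5 to 348 CPM (median 50.0) in WT and differed by -0.73 ± 0.25 (adjusted p = 0.00701), with the mean at 9.29% of the WT range. This call was lost without the libraries lettered B (-0.64, adjusted p = 0.0621) and without CT4, CT8, CT28 or CT32 (-0.56 to -0.48, adjusted p = 0.0504 to 0.0837). All *Per1,2-/-* libraries of this gene lay inside the WT range, in its lower part. Its partner *Nr1d2* (REV-ERBβ) differed in the other direction, by 0.96 ± 0.15 (adjusted p = 3.34e-08), and stood at 97.4% of the WT range. *Rora* was higher (0.47 ± 0.15, adjusted p = 0.00585), though not without the libraries lettered A (0.40, adjusted p = 0.0677) or C (0.31, adjusted p = 0.116). *Clock* (0.32 ± 0.20, adjusted p = 0.161) did not pass the test. On this linear scale of CPM, *Nr1d1* stood in the lower part of its WT range and *Nr1d2* near the top of its own. The position of *Nr1d1* depends on that scale, as its WT time point means ran from 4.15 CPM at CT20 to 268 CPM at CT8. Those of *Per1,2-/-* ran from 23 to 36.7 CPM, above WT at some time points and below it at others.

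Of the 22 measured genes known as outputs of the clock, 9 were higher and 5 lower, 3 and 4 of them at least 2-fold. The shares over all genes were 32.8% and 29.9%, and 2.15% and 1.08% at least 2-fold. The differences between the genotypes varied with time for all 22, beside 27.2% of all genes, so a mean level can sum opposite differences at different hours. *Tef* lay at 145 to 238 CPM (median 195) in *Per1,2-/-* and 26.1 to 225 CPM (median 95.1) in WT, 2.29-fold higher (1.19 ± 0.11, adjusted p = 4.71e-17), and higher at 11 of 12 time points, with a mean at 94.8% of the WT range. *Dbp*, the sister gene, lay at 60.1 to 221 CPM (median 155) in *Per1,2-/-* and 4.57 to 516 CPM (median 55.6) in WT. Its fitted difference of 1.09 ± 0.28 (adjusted p = 5.90e-04) is a mean of log ratios, and the ratio of arithmetic means was -0.10 on the log2 scale, so the direction for *Dbp* depends on how time is averaged. *Hlf*, the third PAR bZIP gene, differed by 0.07 ± 0.07 (adjusted p = 0.407) and did not pass the test. *Rgs16*, a regulator of G protein signalling, differed by 1.27 ± 0.31 and *Usp2*, a ubiquitin peptidase, by 0.96 ± 0.20, and *Wee1*, a mitotic kinase gene with E-box control, by 0.47 ± 0.15. These 3 genes were higher, with means at 36.6%, 45.2% and 57.2% of the WT range.

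The outputs that were at least 2-fold lower had their highest WT time point means at CT0 (*Ppard* and *Chka*), CT24 (*Elovl3*) and CT44 (*Cdkn1a*). *Ppard* (PPARδ), a fatty acid sensing receptor, lay at 3.44 to 10.9 CPM (median 6.43) in *Per1,2-/-* and 8.65 to 101 CPM (median 16.7) in WT. It was 3.49-fold lower (-1.80 ± 0.14, adjusted p = 4.81e-20), lower at all 12 time points, and its mean was under the lowest WT time point mean of 10.3 CPM. *Chka*, a choline kinase of phospholipid synthesis, lay at 15.1 to 48.1 CPM (median 27.7) in *Per1,2-/-* and 14.9 to 356 CPM (median 71.4) in WT and differed by -1.34 ± 0.16 (adjusted p = 6.59e-12), with the mean at 4.57% of the WT range. *Elovl3*, a fatty acid elongase, lay at 1.93 to 254 CPM (median 116) in *Per1,2-/-* and 20.4 to 1016 CPM (median 291) in WT and differed by -1.51 ± 0.27 (adjusted p = 9.69e-07). For *Cdkn1a* (p21), an inhibitor of the cell cycle, the difference was -1.35 ± 0.30 (adjusted p = 4.53e-05), and -2.22 without the 6 libraries that correlate least with the others. *Lonrf3* was also lower (-0.39 ± 0.13), and *Tfrc*, the transferrin receptor, was higher (0.57 ± 0.19). Neither passed without 1 set of libraries, at -0.30 (adjusted p = 0.0547) without those lettered C for *Lonrf3* and 0.43 (adjusted p = 0.092) without those lettered B for *Tfrc*. *Cdkn1a* was not called in the first 24 hours alone (-0.64, adjusted p = 0.218).

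**Figure D1:**
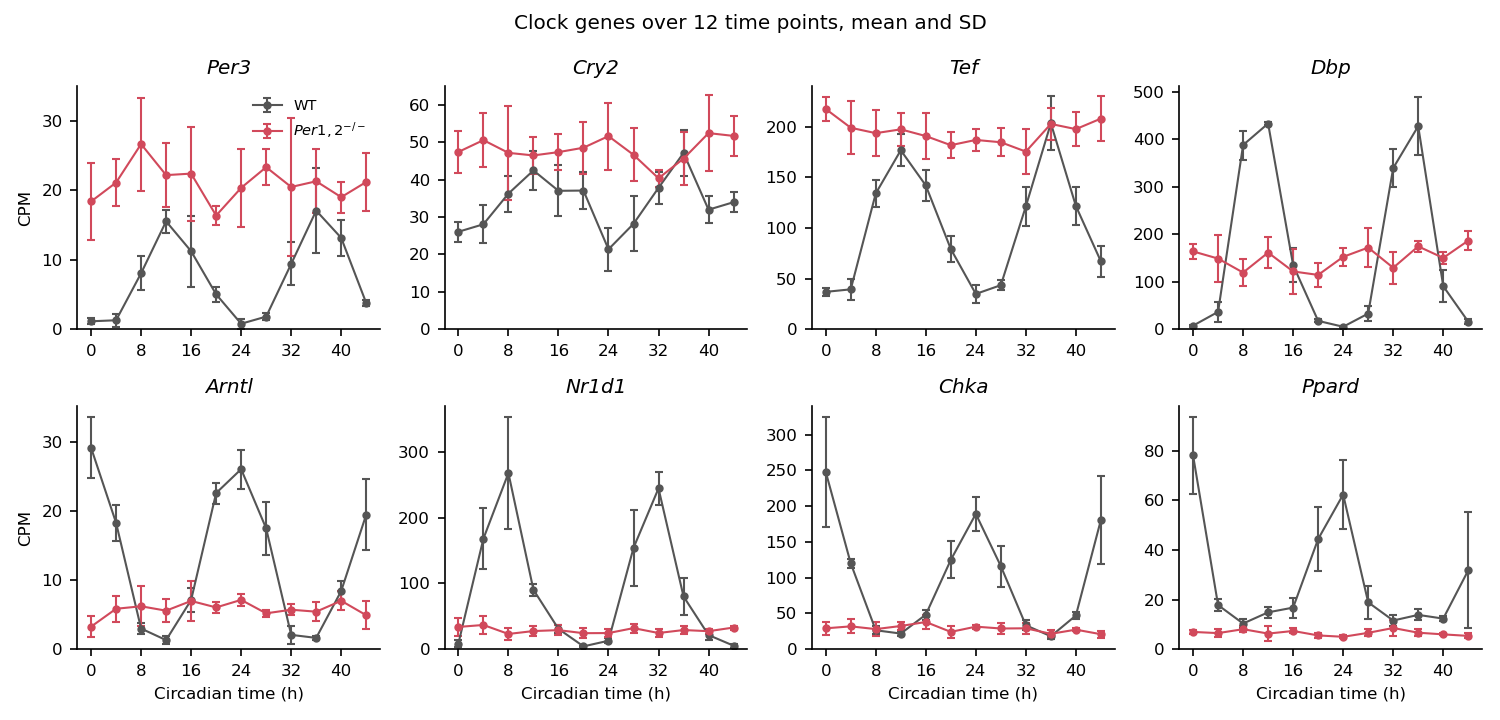
Mean CPM and SD of the 3 or 4 libraries at each of 12 time points (circadian time, hours) for 8 clock genes and outputs, WT in grey and *Per1,2-/-* in red. In WT each gene swings daily, and in *Per1,2-/-* the means stay between 16.4 and 26.7 CPM for *Per3* and between 23 and 36.7 CPM for *Nr1d1*, above the highest WT mean of 17.1 CPM except at CT20 in the first case and between the WT extremes of 4.15 and 268 CPM in the second.

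Among genes with a mean of at least 10 CPM that differed in one direction at all 12 time points, the 15 largest higher differences ran from 1.73 to 5.54. *Cyp2b9*, a cytochrome P450 that mouse livers express far more in females, led them. It lay at 1.19 to 98.6 CPM (median 30.6) in *Per1,2-/-* and 0 to 7.19 CPM (median 0) in WT, a difference of 5.54 ± 0.30 (adjusted p = 4.40e-30). The median WT library held no count of it, so the fold rests on a WT level near 0.

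*Acnat2*, an acyltransferase that joins fatty acids to amino acids in peroxisomes, lay at 27.6 to 225 CPM (median 69.4) in *Per1,2-/-* and 1.95 to 41.1 CPM (median 7.64) in WT. The difference was 3.05 ± 0.14 (adjusted p = 2.04e-34). *Nat8*, which acetylates cysteine conjugates on the way to mercapturic acids, lay at 65.2 to 439 CPM (median 271) in *Per1,2-/-* and 24.3 to 155 CPM (median 62.4) in WT and was 3.93-fold higher (1.97 ± 0.09, adjusted p = 2.36e-33). *Rad51b*, of the homologous recombination machinery, differed by 3.05 ± 0.14 and *Amy1*, the amylase gene of liver and salivary gland, by 2.69 ± 0.11. The neighbouring aldo-keto reductases *Akr1c13* and *Akr1c12* were higher by 2.61 and 2.26, and as close copies they may share reads. *Prtn3*, a protease gene of myeloid granules, lay at 1.12 to 254 CPM (median 10.6) in *Per1,2-/-* and 0.361 to 12.6 CPM (median 2.54) in WT with a difference of 2.98 ± 0.33 (adjusted p = 5.40e-13), beside the neutrophil markers given above, and the part of those cells in it was not tested. *Blnk*, an adaptor known from B cells, differed by 2.04 ± 0.11, *Ifi27l2b* by 1.79 ± 0.14, *Trappc1*, of a vesicle tethering complex, by 1.75 ± 0.10 and the ribosomal protein gene *Rps25* by 1.87 ± 0.07. The 2 acute phase genes among the 15, *Orm2* and *Apcs*, are given with their list.

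The 15 largest lower differences ran from -3.30 to -1.39. The first, the RNA gene *1500017E21Rik*, lay at 0.21 to 25.7 CPM (median 4.64) in *Per1,2-/-* and 6.11 to 109 CPM (median 52.4) in WT and differed by -3.30 ± 0.15 (adjusted p = 1.12e-34). *Cyp7b1*, the oxysterol 7α-hydroxylase of the alternative bile acid pathway and a gene of male liver, lay at 4.45 to 83.1 CPM (median 19.2) in *Per1,2-/-* and 18 to 297 CPM (median 81) in WT, 4.27-fold lower (-2.09 ± 0.18, adjusted p = 5.60e-18). *Spp2*, which encodes a secreted phosphoprotein of liver and bone, lay at 68.4 to 128 CPM (median 97.1) in *Per1,2-/-* and 208 to 525 CPM (median 362) in WT and differed by -1.90 ± 0.05 (adjusted p = 2.05e-53). Every *Per1,2-/-* library was below every WT library for *Spp2*, and the same was true of *Nfix*, a nuclear factor I transcription factor. *Nfix* lay at 21.3 to 68.3 CPM (median 51.9) in *Per1,2-/-* and 89.7 to 227 CPM (median 135) in WT (-1.45 ± 0.07, adjusted p = 6.80e-35). *Onecut1* (HNF6), another liver transcription factor, differed by -1.39 ± 0.20 (adjusted p = 6.62e-09), at 0.745 to 25.1 CPM (median 9.53) in *Per1,2-/-* and 2.98 to 91 CPM (median 22.3) in WT.

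Metabolic enzymes made up much of the rest. *Pck1*, the cytosolic phosphoenolpyruvate carboxykinase that commits carbon to gluconeogenesis, lay at 222 to 2527 CPM (median 804) in *Per1,2-/-* and 722 to 9109 CPM (median 2436) in WT. It was 3.12-fold lower (-1.64 ± 0.17, adjusted p = 1.00e-14) and lower at every time point, though the ranges overlapped. *Ass1*, the argininosuccinate synthase of the urea cycle, differed by -1.43 ± 0.11, *Pdp2*, which activates pyruvate dehydrogenase, by -1.67 ± 0.10, and *Etnk2*, an ethanolamine kinase, by -1.49 ± 0.07. *Cyp4a12b*, a fatty acid ω-hydroxylase with a near-identical neighbour, differed by -1.91 ± 0.17, and the complement gene *C6* by -1.39 ± 0.11. The remaining genes of the 15 were *Pla2g12a*, a secreted phospholipase (-1.48 ± 0.11), *Pcsk4*, a proprotein convertase (-1.47 ± 0.12), *Tiam2*, an exchange factor for RAC (-1.43 ± 0.13), and *Ppard*, described above.

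**Figure D2:**
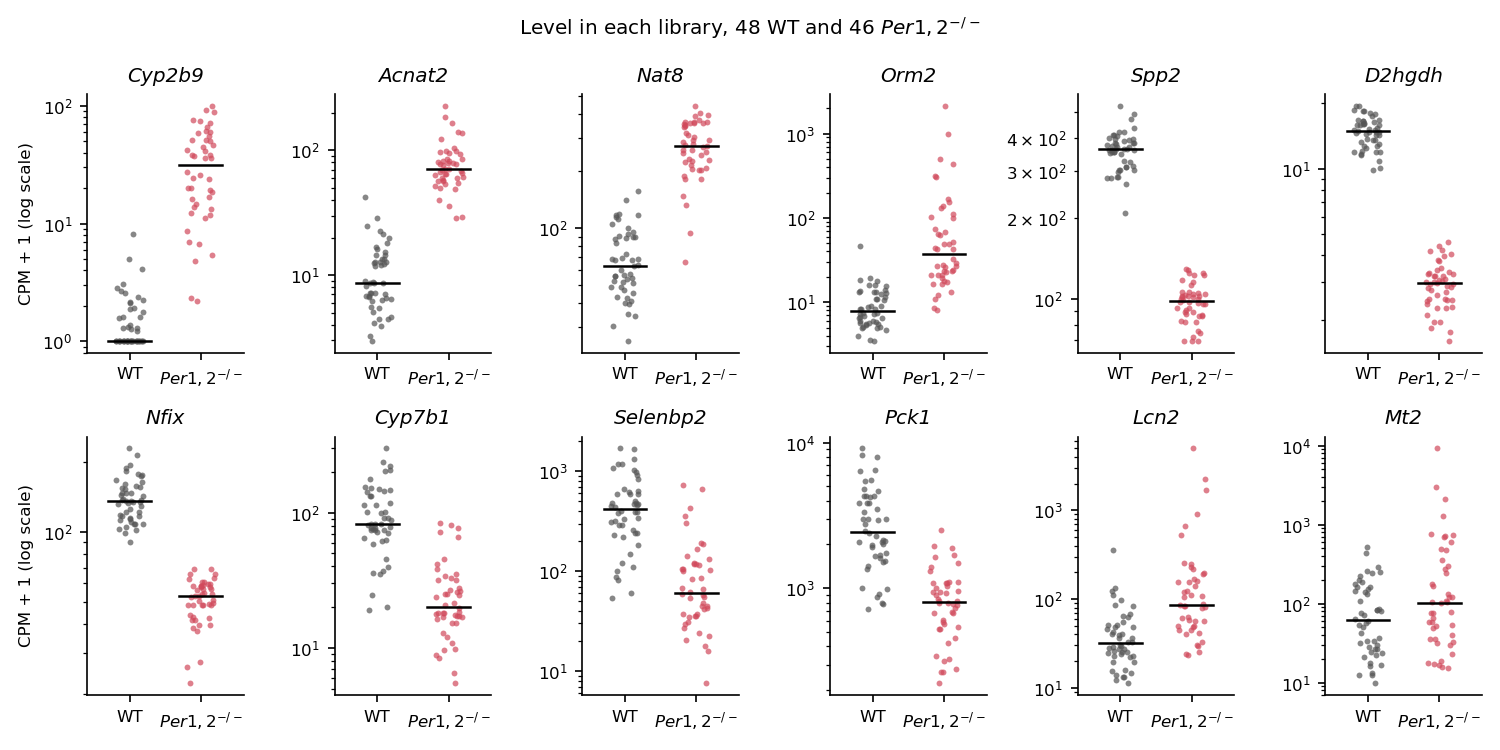
CPM + 1 on a log axis in each of 48 WT (grey) and 46 *Per1,2-/-* (red) libraries for 12 genes, with the median as a bar. The clouds are apart for *Spp2*, *D2hgdh* and *Nfix*, and spread over the widest range in *Per1,2-/-* for *Mt2*, from 14.5 to 9223 CPM.

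Sex-biased genes differed in livers that were all male, and the male-biased list had the lowest median of the 45 function lists. In mouse liver the pulsed growth hormone of males acts through STAT5B to hold male-biased genes up and female-biased genes down. Of 25 measured male-biased genes, 16 were lower in *Per1,2-/-*, 7 of them at least 2-fold, and 4 higher (median log2 difference -0.69), beside 29.9% and 1.08% of all genes lower and 2-fold lower. Of 27 listed female-biased genes, 11 passed the filter on low values, and 4 of these, *Cyp2b9* and *Cyp2c69* among them, reached 1 CPM in under 23 WT libraries and passed through the *Per1,2-/-* libraries as well. The counts over the 11 (6 higher, 1 lower, median log2 difference 0.73) therefore describe only the genes that passed. Of the 7 that reached 1 CPM in at least 23 WT libraries, 2 were higher and 1 lower. Without the 6 libraries that correlate least, the counts were 15 lower and 4 higher for the male-biased list and 6 higher and 2 lower for the female-biased one. Beside *Cyp7b1*, *Cyp4a12b* and *C6*, the male-biased gene *Selenbp2*, a selenium binding protein, lay at 6.52 to 731 CPM (median 60.0) in *Per1,2-/-* and 53 to 1694 CPM (median 416) in WT and differed by -2.47 ± 0.28 (adjusted p = 1.58e-12). Against that direction, *Ugt2b1*, a glucuronosyltransferase, was higher by 1.56 ± 0.11, *Mup3*, a major urinary protein with many close copies, by 0.58 ± 0.16, and *Gstp1* by 0.32 ± 0.08.

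On the female side, *Cyp2c69* lay at 0 to 5.82 CPM (median 1.1) in *Per1,2-/-* and 0 to 2.26 CPM (median 0) in WT and was higher by 2.54 ± 0.36 (adjusted p = 1.81e-09), as was *Acot3*, a peroxisomal acyl-CoA thioesterase (1.74 ± 0.22, adjusted p = 3.96e-11). *Cyp2a4*, also female-biased, went against the list at -2.08 ± 0.59 (adjusted p = 0.00162), and -3.09 without the 6 libraries. *Cyp2a4* has close copies among its neighbours, so its counts are uncertain. In the growth hormone axis itself 4 of 17 measured genes were higher and 6 lower, beside 32.8% and 29.9% of all genes. Most differed by little. The receptor *Ghr* differed by -0.48 ± 0.08 (adjusted p = 6.37e-08) and *Igf1*, its main endocrine target, by -0.20 ± 0.05 (adjusted p = 8.91e-04), while *Prlr*, the prolactin receptor, was higher (0.49 ± 0.15, adjusted p = 0.00352) in the first 24 hours (1.08) and not in the second (-0.07). Without the libraries lettered A it did not pass (0.38, adjusted p = 0.058). The member that differed most was *Onecut1*.

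**Figure D3:**
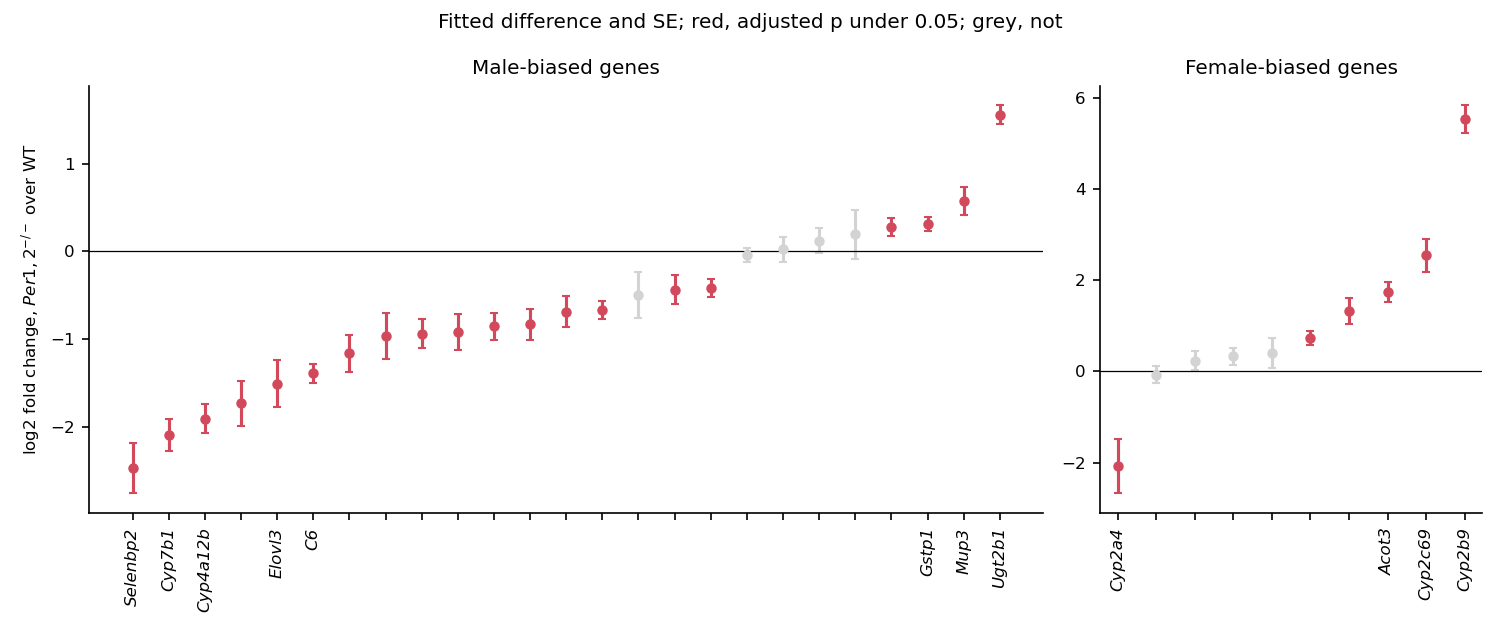
Fitted log2 difference (*Per1,2-/-* over WT) and SE of 25 male-biased and 10 of the 11 measured female-biased genes, red where the adjusted p is under 0.05, with the genes given in the text named. Most male-biased genes lie below 0, down to -2.47 for *Selenbp2*, and the female-biased genes run from -2.08 for *Cyp2a4* to 5.54 for *Cyp2b9*.

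Acute phase genes, which hepatocytes switch on under cytokines such as interleukin 6, were, of the 45 function lists, the one with the highest share of higher members. Of 32 measured, 23 were higher, 8 of them at least 2-fold, and 3 lower (median log2 difference 0.40), beside 32.8% of all genes higher and 29.9% lower. *Orm2*, an orosomucoid, lay at 7.06 to 2117 CPM (median 36.3) in *Per1,2-/-* and 2.44 to 44.9 CPM (median 6.85) in WT and differed by 3.28 ± 0.35 (adjusted p = 8.12e-14). *Lcn2*, the iron-siderophore binding lipocalin, lay at 22.3 to 5001 CPM (median 85.6) in *Per1,2-/-* and 10.1 to 357 CPM (median 30.6) in WT (2.12 ± 0.36, adjusted p = 2.55e-07), and *Mt2*, a metallothionein, at 14.5 to 9223 CPM (median 101) in *Per1,2-/-* and 8.74 to 526 CPM (median 60.4) in WT (1.53 ± 0.43, adjusted p = 0.0015). A few *Per1,2-/-* libraries carried the top of these ranges. *Per1,2-/-* CT16 A held 2117 CPM of *Orm2* and 5001 of *Lcn2*, CT12 A held 997 and 2284, and CT32 A 437 and 1707, all 3 among the 6 libraries named above. Libraries outside the 6 were high too, as CT28 A with 496 and 662 CPM and CT16 D with 305 and 903 CPM. Without the 6 libraries the list counted 21 higher and 3 lower, and the differences were 2.74 for *Orm2*, 1.48 for *Lcn2* and 0.90 for *Mt2*. In the second 24 hours alone that of *Mt2* was -0.05 and did not pass the test, nor did it without the libraries lettered C (1.09, adjusted p = 0.0692).

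Other members were higher as well. *Apcs*, serum amyloid P, lay at 10.9 to 318 CPM (median 24.8) in *Per1,2-/-* and 5.48 to 24.9 CPM (median 9.87) in WT (1.73 ± 0.17, adjusted p = 1.35e-15). Its highest values were in *Per1,2-/-* CT16 A (318 CPM), CT16 D (180 CPM) and CT12 A (160 CPM), libraries also high for *Orm2* and *Lcn2*. The *Apcs* difference was 1.58 without the 6 libraries, 2.35 in the first 24 hours and 1.05 in the second. *Itih4*, an inter-α-trypsin inhibitor chain, differed by 0.72 ± 0.07 (adjusted p = 2.53e-15), and *C3*, the central complement component, by 0.47 ± 0.06 (adjusted p = 7.11e-12). The lower members were *Serpina3k* (-0.56 ± 0.08, adjusted p = 6.34e-09), *Il1r1*, the interleukin 1 receptor (-0.53 ± 0.10, adjusted p = 1.34e-06), and *Cebpb*, a transcription factor that drives acute phase genes (-0.45 ± 0.07, adjusted p = 9.67e-08). In the overlapping list of glucocorticoid targets, 5 of 21 measured genes were higher, *Lcn2*, *Mt2*, *Mt1* (1.26 ± 0.35) and *Tdo2* (0.70 ± 0.07) among them, and 10 lower, with *Zbtb16* at -0.83 ± 0.18 and *Tsc22d3* (GILZ) at -0.66 ± 0.09 beside *Pck1*. These counts stand beside 32.8% of all genes higher and 29.9% lower. The call of *Mt1* was lost without the libraries lettered C (0.89, adjusted p = 0.0606).

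Of 24 measured genes of cholesterol synthesis, 12 were higher and 3 lower (median log2 difference 0.23), beside 32.8% and 29.9% of all genes. *Lss*, lanosterol synthase, lay at 3.09 to 20.6 CPM (median 12.5) in *Per1,2-/-* and 1.07 to 10.2 CPM (median 4.84) in WT and differed by 1.28 ± 0.12 (adjusted p = 5.60e-16). *Msmo1* (0.86 ± 0.12), *Cyp51* (0.77 ± 0.12) and *Hsd17b7* (0.59 ± 0.07), which work on lanosterol after it, were higher too, and *Tm7sf2*, the sterol reductase of the same stretch, was lower (-0.73 ± 0.11). In fatty acid and triglyceride synthesis 13 of 25 were higher and 1 lower (median log2 difference 0.33). The difference between the genotypes varied with time for 24 of the 25, beside 27.2% of all genes. The largest were *Pnpla3*, a lipid droplet hydrolase under SREBP and insulin control (1.70 ± 0.29, adjusted p = 4.34e-07), and *Mogat1*, a monoacylglycerol acyltransferase (1.54 ± 0.21, adjusted p = 5.51e-10). *Acacb*, the mitochondrial acetyl-CoA carboxylase, was higher by 0.96 ± 0.17 and *Mid1ip1*, which promotes polymerization of the carboxylases, by 0.85 ± 0.11. *Dgat1* was the lower one (-0.17 ± 0.04). In the first 24 hours alone *Acacb* (0.19, adjusted p = 0.428) and *Mogat1* (0.37, adjusted p = 0.247) did not pass, and in the second they stood at 1.70 and 2.20. *Pnpla3* and *Mid1ip1* passed in both, at 1.10 and 0.44 in the first and 2.14 and 1.22 in the second.

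In fatty acid oxidation and ketogenesis, most of whose genes are PPARα targets, the 41 measured genes split into 16 higher and 10 lower (median log2 difference 0.13). The shares over all genes were 32.8% and 29.9%. *Acot2*, the mitochondrial acyl-CoA thioesterase, lay at 1.68 to 97.5 CPM (median 12.4) in *Per1,2-/-* and 0.781 to 18.3 CPM (median 3.5) in WT (1.90 ± 0.18, adjusted p = 4.97e-16). On the lower side were enzymes of mitochondrial oxidation, *Eci1* at -0.45 ± 0.05, *Etfdh* at -0.31 ± 0.05 and *Acadvl* at -0.24 ± 0.04.

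Genes of glucose production and amino acid breakdown differed in both directions, beside 32.8% of all genes higher and 29.9% lower. Of 28 measured genes of gluconeogenesis, glycolysis and glycogen, 8 were higher and 13 lower (median log2 difference -0.19), and of 47 for ureagenesis and the breakdown of amino acids 10 were higher and 24 lower (median log2 difference -0.15). *Pgam1*, phosphoglycerate mutase, differed by -1.33 ± 0.11 (adjusted p = 5.80e-19), *Ugp2*, which makes UDP-glucose for glycogen, by -0.75 ± 0.05, *Pfkl* by -0.52 ± 0.05 and *Gckr*, the inhibitor of glucokinase, by -0.51 ± 0.05. *Pgk1*, the kinase one step from *Pgam1* in the same pathway, was higher by 1.15 ± 0.09 (adjusted p = 2.60e-20). The glucose transporter *Slc2a2* (GLUT2) was higher by 0.63 ± 0.08 (adjusted p = 1.13e-10), and *Ppp1r3g*, a glycogen targeting subunit of protein phosphatase 1, by 1.53 ± 0.32. Beside *Ass1*, lower genes of amino acid breakdown were *Cbs*, cystathionine β-synthase (-0.84 ± 0.05), and *Amdhd1* and *Ftcd* of histidine breakdown (-0.81 ± 0.08 and -0.58 ± 0.05). *Mat1a*, which makes S-adenosylmethionine, was higher (0.80 ± 0.06, adjusted p = 2.09e-22), as were *Tdo2*, which opens tryptophan, and *Fah* of tyrosine breakdown (0.48 ± 0.04).

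Several of these lower genes belong to the periportal zone of the lobule, where portal blood enters. Counts in this paragraph stand beside 32.8% of all genes higher and 29.9% lower, 2.15% and 1.08% at least 2-fold. Of 25 measured periportal genes 13 were lower, 4 of them at least 2-fold, and 4 higher (median log2 difference -0.20), and of 35 pericentral genes 9 were lower and 10 higher, 3 at least 2-fold (median log2 difference -0.07). *Hsd17b6*, a periportal hydroxysteroid dehydrogenase, differed by -1.23 ± 0.13 (adjusted p = 1.59e-13), while *Alb*, itself weakly periportal, was higher by 0.52 ± 0.05 (adjusted p = 6.96e-18). The pericentral genes *Pon1*, the serum paraoxonase, and *Aldh1a1*, a retinal dehydrogenase, were higher by 1.67 ± 0.09 and 0.79 ± 0.07. The zonation lists share genes with those of glucose, amino acid and drug metabolism, so the counts are not separate evidence. Of 19 genes of NAD synthesis and the sirtuins, 13 were lower and 5 higher (median log2 difference -0.22), among them *Sirt6* (-0.68 ± 0.11, adjusted p = 1.14e-07) and *Nmnat3* (-0.66 ± 0.07, adjusted p = 1.88e-13), while *Nmrk1*, the nicotinamide riboside kinase, was higher (0.56 ± 0.09, adjusted p = 3.21e-08).

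Bile acid and drug metabolism held large differences in both directions. Their counts stand beside 32.8% of all genes higher and 29.9% lower, 2.15% and 1.08% at least 2-fold. Of 24 measured genes of bile acid synthesis and transport, 10 were higher and 8 lower (median log2 difference 0.02). Next to the low *Cyp7b1*, *Cyp39a1*, the hydroxylase that takes 24-hydroxycholesterol down a parallel route, lay at 2.26 to 36.8 CPM (median 7.91) in *Per1,2-/-* and 0.315 to 7.3 CPM (median 2.05) in WT and was higher by 2.08 ± 0.14 (adjusted p = 6.38e-24). *Akr1d1*, the 5β-reductase, was higher by 0.64 ± 0.06, and *Hsd3b7* and the phospholipid exporter *Abcb4* differed by -0.61 ± 0.07 and -0.55 ± 0.06. Of 36 measured P450 genes of families 1 to 3, 14 were higher, 6 at least 2-fold, and 12 lower, 2 at least 2-fold. *Cyp3a11*, the main drug-metabolizing CYP3A of mouse liver, lay at 78.4 to 454 CPM (median 266) in *Per1,2-/-* and 58.9 to 157 CPM (median 92.9) in WT (1.39 ± 0.08, adjusted p = 4.69e-29), and *Cyp3a13* and *Cyp2c50* were higher by 1.49 ± 0.10 and 1.06 ± 0.09. *Cyp2c55* (2-fold, with medians of 4.51 CPM in *Per1,2-/-* and 9.23 CPM in WT), *Cyp2c29* (-0.55 ± 0.10) and *Cyp2f2* (-0.52 ± 0.08) were lower. Among 38 genes of phase II conjugation, 16 were higher and 8 lower, with the glutathione transferases on both sides, *Gstm5* at 1.28 ± 0.07 and *Gstm7* and *Gstm2* at -1.26 ± 0.07 and -1.13 ± 0.11. The P450 and Gstm families hold close copies, between which 3′ tags can be split, so single members are uncertain.

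Of 38 measured genes of the interferon response and MHC class I, 15 were lower and 5 higher (median log2 difference -0.09), beside 29.9% of all genes lower and 32.8% higher. *Ifit1* differed by -1.12 ± 0.13 (adjusted p = 8.23e-13), *Usp18*, which curbs interferon signalling, by -1.05 ± 0.11 (adjusted p = 9.56e-14), the immunoproteasome subunit *Psmb9* by -0.92 ± 0.10 (adjusted p = 1.11e-12), and *Ifitm3* by -0.79 ± 0.07 (adjusted p = 1.93e-16). *B2m*, the light chain of MHC class I, went against them at 850.4 to 2259 CPM (median 1719.9) in *Per1,2-/-* and 302 to 1035 CPM (median 619) in WT, 2.68-fold higher (1.42 ± 0.07, adjusted p = 1.72e-32). Only the lowest *Per1,2-/-* and the highest WT libraries of *B2m* overlapped. In complement and coagulation, 16 of 38 were higher and 10 lower. *Cpb2*, the carboxypeptidase that slows clot lysis, lay at 132 to 572 CPM (median 203) in *Per1,2-/-* and 21.8 to 111 CPM (median 74.8) in WT, with no overlap (1.64 ± 0.10, adjusted p = 5.78e-27), and *Pros1*, protein S, was higher by 0.91 ± 0.06. *F12* and *F11*, of the contact pathway of clotting, differed by -0.62 ± 0.03 and -0.52 ± 0.07.

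The insulin to AKT pathway, which the study addressed through the phosphorylation of AKT, was measured here only as transcripts. Of 30 measured genes 13 were higher and 8 lower (median log2 difference 0.14), beside 32.8% and 29.9% of all genes. *Irs2*, the insulin receptor substrate that falls with insulin, lay at 1.59 to 40.7 CPM (median 5.8) in *Per1,2-/-* and 0.579 to 56.5 CPM (median 16) in WT and differed by -1.19 ± 0.17 (adjusted p = 4.94e-09). *Gsk3b*, a kinase that AKT inhibits, differed by -0.92 ± 0.15 (adjusted p = 7.62e-08), *Gsk3a* by -0.45 ± 0.05 and the transcription factor gene *Foxo4* by -0.59 ± 0.05. *Akt2*, the main AKT of liver, was higher by 0.48 ± 0.06 (adjusted p = 2.18e-11), *Pdpk1*, which phosphorylates it, by 0.60 ± 0.06 (adjusted p = 4.66e-14), and the stress gene *Sesn1* by 0.44 ± 0.05. Transcript levels do not give the phosphorylation of AKT, which was not analysed here.

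**Figure D4:**
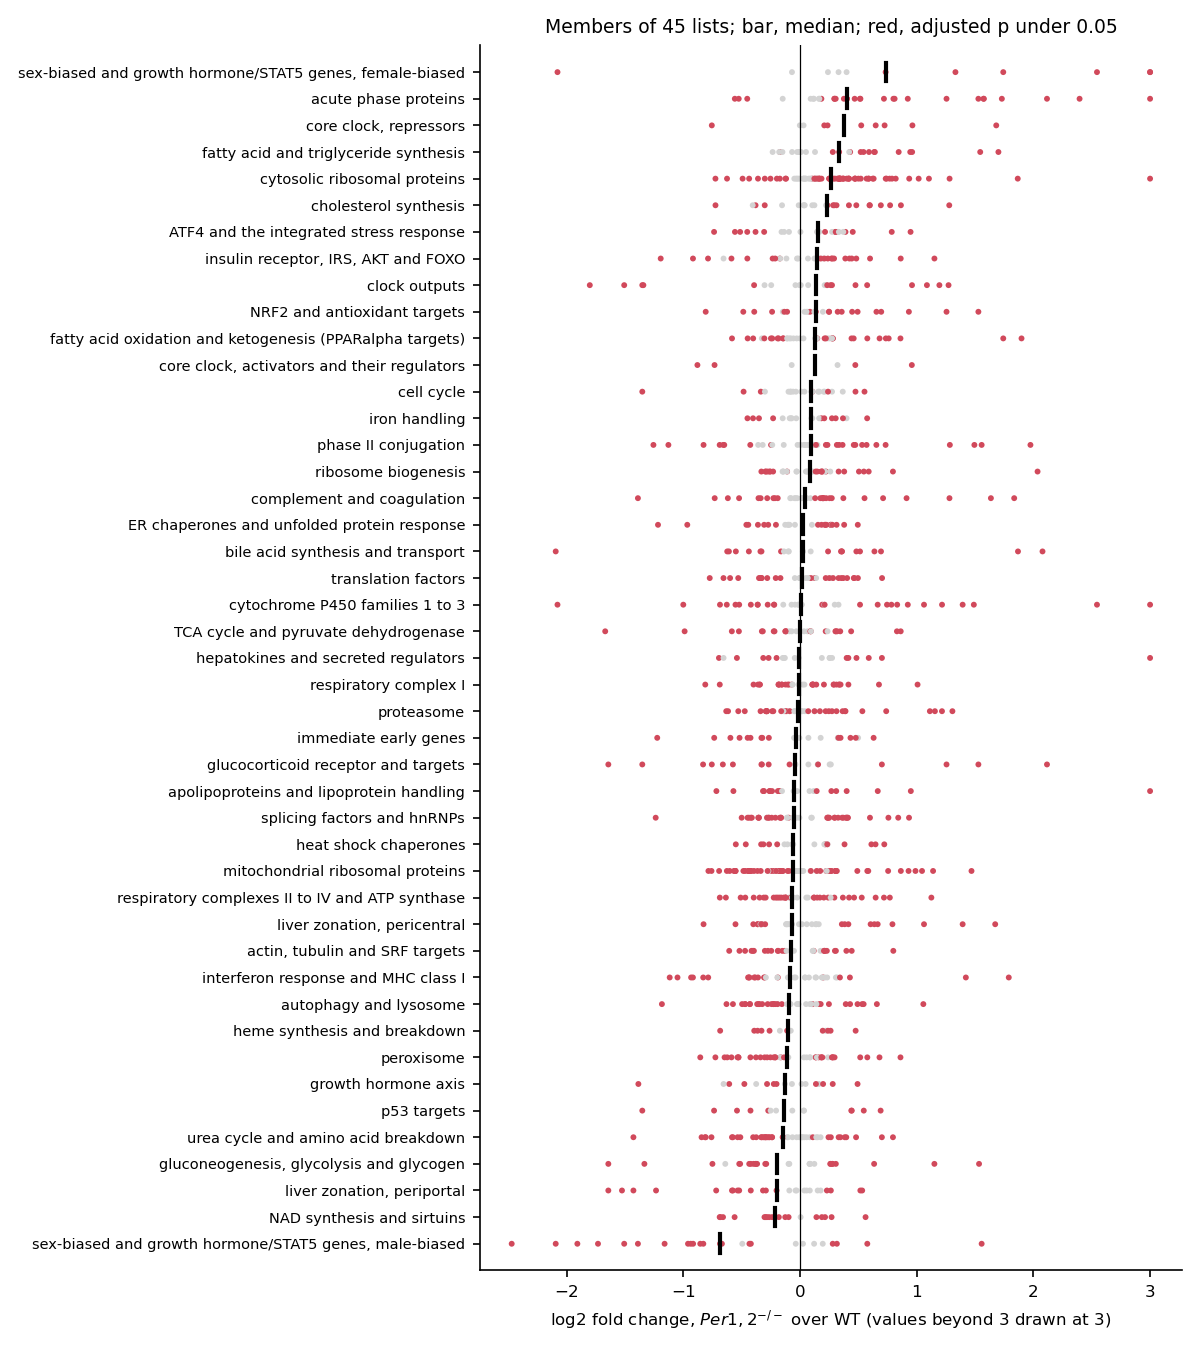
Log2 difference (*Per1,2-/-* over WT) of each measured member of 45 function lists, red where the adjusted p is under 0.05, with the list median as a bar, ordered by that median. Medians run from -0.69 for male-biased genes to 0.73 for female-biased genes, with acute phase proteins at 0.40, and most lie close to the 0.02 of all genes.

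Ribosomal protein and proteasome genes include several whose libraries did not overlap between the genotypes. Over all genes, 0.198% lay above WT and 0.162% below it in this way. The counts of called genes here stand beside 32.8% of all genes higher, 2.15% at least 2-fold, and 29.9% lower. Of 79 cytosolic ribosomal protein genes 52 were higher, 5 at least 2-fold, and 11 lower (median log2 difference 0.26). *Rps25* lay at 82.5 to 250.2 CPM (median 143) in *Per1,2-/-* and 24.6 to 80.0 CPM (median 37) in WT, so that every *Per1,2-/-* library was above every WT library, and the same held for *Rpl35a* (1.28 ± 0.06), *Rpl7* (1.10 ± 0.04) and *Rpl23* (1.02 ± 0.04). *Rps6* differed by -0.63 ± 0.07 (adjusted p = 3.25e-13). Of 41 proteasome genes 16 were higher and 16 lower, with *Psma6* (1.22 ± 0.05) and *Psma2* (1.11 ± 0.05) above WT in every library. Of 74 mitochondrial ribosomal protein genes 22 were higher and 34 lower, with *Mrpl42* at 0.99 ± 0.04 and *Mrps24* at -0.79 ± 0.04, both without overlap. Subunits of the same particle thus differed in opposite directions, as genes did over the whole comparison. Many of these genes have processed pseudogenes with near-identical sequence, so their counts are uncertain.

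The *Bmal1-/-* livers, counted in a table of their own, was fitted against the same 48 WT libraries, so that values below share their WT side and no likeness between them is read. The log2 differences from WT in *Per1,2-/-* and in *Bmal1-/-* were 1.87 and 2.17 for *Rps25*, 1.28 and 1.26 for *Rpl35a*, 1.22 and 0.81 for *Psma6*, 1.75 and 2.26 for *Trappc1*, and 1.64 and 1.52 for *Cpb2*. For *Amy1* they were 2.69 and 3.69 and for *Pck1* -1.64 and -1.38. Other genes had values of opposite sign, 1.97 and -5.43 for *Nat8*, -2.09 and 1.51 for *Cyp7b1*, -1.80 and 1.48 for *Ppard*, and -1.51 and 2.43 for *Elovl3*. Within the clock they were 1.68 and -1.13 for *Per3*, -0.73 and -5.16 for *Nr1d1*, 0.96 and -2.86 for *Nr1d2*, 0.03 and 2.04 for *Cry1*, and 1.09 and -2.48 for *Dbp*. For the first group of genes a difference of WT from both knockouts and a difference of the WT table from the other tables cannot be told apart.

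Genes next to the targeted loci were examined because a knockout allele is inherited with the chromosome around it. *Per1* lies at 69095108 to 69109965 on chromosome 11 and *Per2* at 91415977 to 91459351 on chromosome 1 of GRCm38.p6. Within 10 Mb of *Per1*, 11 of 250 genes tested (4.4%) differed at least 2-fold, beside 1.69% of 708 on the rest of the chromosome and 3.23% of all placed genes. Within 5 Mb it was 8 of 109 (7.34%). The closest was *Trappc1*, 0.222 Mb away, which is one of the 15 largest higher genes. It was higher than WT in *Bmal1-/-* livers as well, as given above. *Chd3*, of a nucleosome remodelling complex, followed at 0.254 Mb (-1.19 ± 0.05), and *Tmem88* at 0.295 Mb (-1.46 ± 0.10). *Rnf167*, a ubiquitin ligase (1.20 ± 0.05), *Slc2a4*, the glucose transporter GLUT4 (1.58 ± 0.29), *Slc16a13* (1.05 ± 0.18), *Slc13a5*, the citrate transporter (1.95 ± 0.22), and *Cyb5d2* (-1.38 ± 0.09) lay within 5 Mb. *Slc2a4*, *Slc16a13* and *Slc13a5* were near the filter on low values, with WT means of 0.857, 1.3 and 0.796 CPM. Their folds, and their part in the share within 5 Mb, rest on low counts. *Taok1* (1.49 ± 0.07), *Ulk2* (-1.18 ± 0.09) and *B9d1* (1.26 ± 0.16) lay farther out, and *B9d1* was low too (WT mean 1.07 CPM).

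Within 10 Mb of *Per2*, 3 of 71 genes (4.23%) differed at least 2-fold, beside 4.04% of 545 on the rest of the chromosome. They were *Spp2*, 3.02 Mb away, *D2hgdh*, 2.4 Mb away, and *Pam*, an enzyme that amidates peptides (1.69 ± 0.13), 6.52 Mb away. *Pam* was near the filter on low values, with a WT mean of 1.28 CPM. *D2hgdh*, the D-2-hydroxyglutarate dehydrogenase, lay at 0.602 to 3.57 CPM in *Per1,2-/-* and 8.84 to 18.4 CPM in WT, a difference of -2.80 ± 0.08 (adjusted p = 1.73e-51). Both *Spp2* and *D2hgdh* are among the 18 genes whose *Per1,2-/-* libraries all lay below all WT libraries. Whether the neighbours differ through the loss of PER1 and PER2, through the carried chromosome or with the separate tables was not tested.

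**Figure D5:**
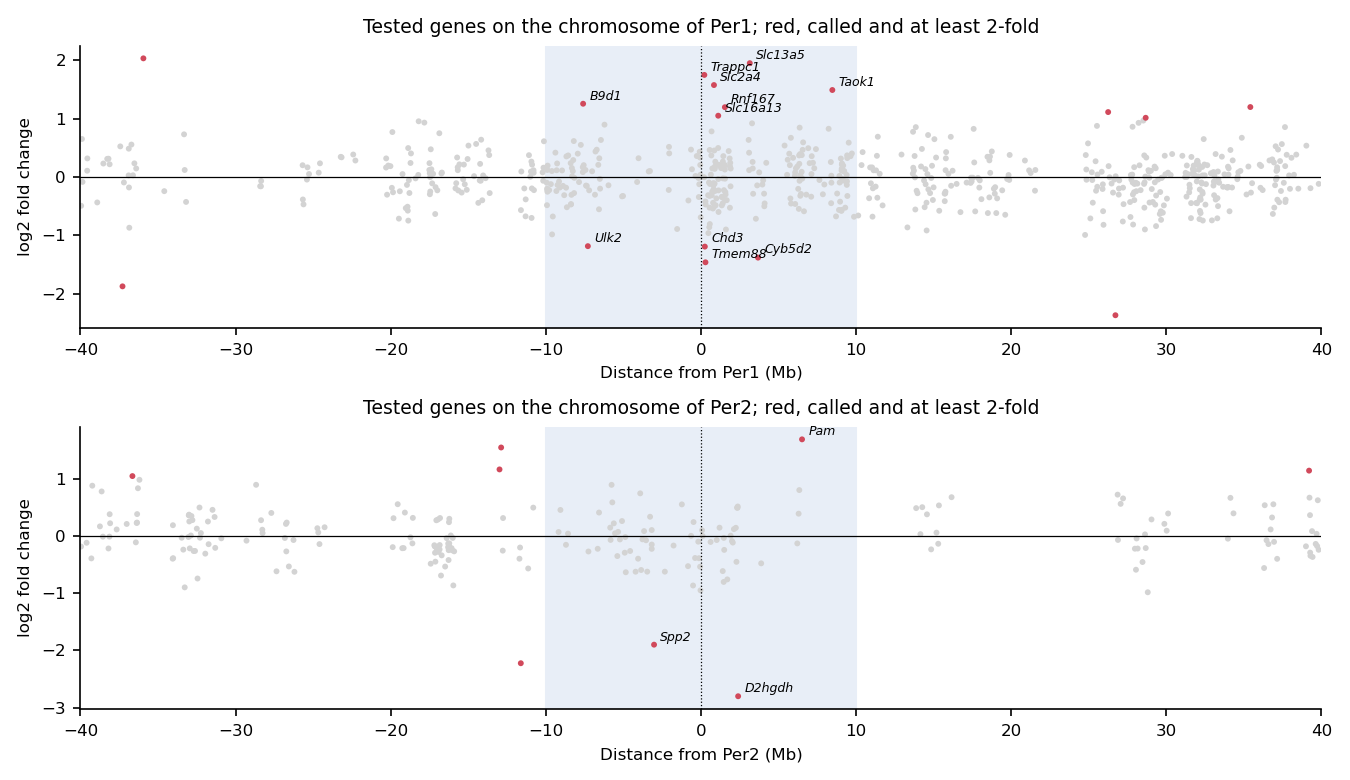
Log2 difference (*Per1,2-/-* over WT) of tested genes against their distance in Mb from *Per1* (upper) and *Per2* (lower), red where the gene is called and differs at least 2-fold, with 10 Mb on each side shaded. Named are the 11 genes near *Per1* and the 3 near *Per2*, with *D2hgdh* the lowest.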

How the data were processed

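Liver RNA of 48 WT and 46 *Per1,2-/-* libraries was measured by MARS-seq, which counts molecules by unique molecular identifiers at the 3′ end of transcripts. Per the labels, the authors used bcl2fastq, cutadapt, STAR on mm10, HTSeq and DESeq2, whose versions are not given in the sources used here, and deposited raw counts per gene symbol and the same values as signal normalized by DESeq2, in 1 table per genotype. The normalized signal was made by the authors within each table and was not tested here. Every row of the deposited tables reaches at least 6 counts in some library. The raw counts of the 11526 symbols held by both tables (of 11727 in WT and 12176 in *Per1,2-/-*) were joined, and 11123 with at least 1 CPM in at least 23 of the 94 libraries were tested.

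Differences were fitted with edgeR 4.0.16 (R 4.3.3, limma 3.58.1, TMM, quasi-likelihood F-test, time point as a block) and adjusted by Benjamini-Hochberg over all genes tested, with a threshold of 0.05. The SE is the size of the log2 difference over the square root of F. Alternatives used DESeq2 1.42.0, limma on time point means, other filters and scalings, libraries left out, and a GC correction for the last 500 transcript bases. Python 3.11.15, pandas 2.3.3, numpy 2.4.6 and matplotlib 3.10.9 served for summaries and plots. No pair of libraries agreed within sampling noise (lowest chi-square per degree of freedom 3.09), so none was counted as a duplicate. The median SD of log2 values within time points was 0.23 in both genotypes. The test was checked on simulated counts, in which it called 96% of 50 genes changed 2-fold. Totals per library limit precision for low genes, and ranges cover all libraries.

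Genes named were those of the clock lists, the 15 largest differences in each direction with a mean of at least 10 CPM and 1 direction at 12 time points, up to 4 genes of smallest adjusted p per direction in each list described, and all genes of sets of at most 12. A few genes that this rule takes in are not reported here. The members, the 45 function lists and the marker lists were chosen with earlier results of these data known. Distances use RefSeq positions on GRCm38.p6.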

Additional observations from a re-analysis of the deposited data

Results flagged for a closer look

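The difference between the genotypes varied over the 12 time points for 86 of the 159 genes given a value in the text, by the edgeR test of 11 interaction terms (27.2% of all genes tested), and the adjusted p of that test is given for each. Within the core clock and its outputs these were *Arntl* (4.4e-22), *Nr1d1* (1.18e-26), *Nr1d2* (2.9e-07), *Per1* (4.71e-15), *Per2* (1.36e-16), *Per3* (1.74e-15), *Cry1* (9.8e-17), *Cry2* (2.15e-05), *Ciart* (1.12e-22), *Bhlhe40* (1.2e-08), *Dbp* (1.17e-30), *Tef* (1.06e-25), *Hlf* (0.00125), *Wee1* (2.02e-13), *Usp2* (5.85e-29), *Rgs16* (6.65e-09), *Chka* (6.62e-22), *Elovl3* (6.81e-07), *Lonrf3* (0.000127), *Tfrc* (0.0331), *Cdkn1a* (1.57e-08) and *Ppard* (2.01e-12). Among sex-biased genes and the growth hormone axis these were *Cyp4a12b* (0.000249), *Selenbp2* (5.74e-05), *Ugt2b1* (0.0263), *C6* (0.032), *Cyp2a4* (3.09e-06), *Acot3* (1.44e-05) and *Prlr* (0.0494). Among acute phase, complement, interferon and glucocorticoid genes these were *Orm2* (0.0352), *Lcn2* (0.00133), *Apcs* (0.00184), *Serpina3k* (0.00315), *Il1r1* (0.0276), *Mt1* (0.000267), *Mt2* (0.000327), *Cebpb* (2.84e-06), *C3* (0.0276), *F11* (0.000387), *Ifit1* (0.0357), *Usp18* (0.0288), *Ifitm3* (0.0472), *Tsc22d3* (0.00025), *Tdo2* (0.00361), *Pck1* (0.0171) and *Zbtb16* (0.0224). For lipid, bile acid and drug metabolism these were *Acacb* (8.05e-10), *Pnpla3* (0.0011), *Dgat1* (0.000905), *Mid1ip1* (0.0134), *Mogat1* (0.000334), *Acot2* (0.0087), *Hsd3b7* (8.08e-10), *Abcb4* (0.00148), *Cyp2c29* (0.0263), *Cyp2c55* (0.000457), *Cyp2f2* (6.45e-06), *Gstm7* (2.79e-05) and *Prdx5* (0.000178). For glucose, amino acid and NAD metabolism and the insulin pathway these were *Gckr* (0.0201), *Slc2a2* (2.13e-07), *Ppp1r3g* (0.0162), *Irs2* (3.29e-05), *Gsk3a* (0.00634), *Ass1* (0.00155), *Fah* (2.52e-05), *Amdhd1* (2.95e-05), *Ftcd* (0.000719), *Cbs* (0.000495), *Mat1a* (0.00945), *Nmnat3* (0.0112), *Nmrk1* (5.32e-11) and *Hsd17b6* (0.00609). Elsewhere these were *1500017E21Rik* (0.000104), *Acnat2* (7.65e-05), *Blnk* (0.00709), *Chd3* (0.0309), *Etnk2* (2.68e-14), *Nfix* (0.00374), *Pcsk4* (1.33e-18), *Pla2g12a* (2.5e-08), *Rad51b* (3.97e-06), *Rnf167* (0.00855), *Rpl23* (4.63e-05), *Slc2a4* (0.00105) and *Tiam2* (0.0025).

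For *Usp2*, WT time point means ran between 3.23 CPM at CT4 and 148 CPM at CT36 and *Per1,2-/-* means between 53 and 91.5 CPM, so the *Per1,2-/-* level was above WT at 8 time points and below it at the others. *Dbp* was above WT at 7 of 12 time points and *Nr1d1* at 5.

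*Ctse*, which encodes the aspartic protease cathepsin E, has a row only in the *Per1,2-/-* table and so entered no comparison. Its mean was 176 counts per library, with 56 in the lowest, and it was above 0 in 46 of 46 *Per1,2-/-* libraries. Every row of the WT table reaches at least 6 counts in some library, and the WT table holds no row for *Ctse*. No WT value was used here.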

How the results depend on the processing

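Counts of called genes rested mainly on which genes were tested. With a mean of at least 10 CPM required, 2272 genes were higher and 2139 lower, 87 and 57 of them at least 2-fold, out of fewer genes tested. The filter of the study left 137 genes at least 2-fold higher. With limma on the 12 time point means of log2(CPM + 1), 131 genes were at least 2-fold higher and 79 lower, a scale that understates low genes. The first 24 hours alone gave 385 at least 2-fold higher genes, and the cause was not tested. Leaving out letter A, B, C or D in turn gave 3179 to 3262 higher and 3116 to 3233 lower genes, 233 to 252 and 124 to 134 at least 2-fold, and 1587 to 1954 genes whose difference varied with time, with fewer libraries per time point. DESeq2 gave 3597 higher and 3369 lower genes. Without the 6 libraries that correlate least 2724 genes varied with time and 56 did not overlap, beside 3026 and 40.

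Deviations of same-lettered libraries of the 2 genotypes had a median correlation of 0.02, beside -0.0043 for different letters. Of 46 same-letter pairs 10 were above 0.1. The labels do not say what the letters stand for, and a batch shared by a letter was not tested. The fit with time point and letter as a replicate block gave 3512 higher and 3235 lower genes.

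Of 155 called genes given with values, 117 could be fitted in all 31 alternatives, and 102 of these lost neither call nor direction. With the genes that a stricter filter or a shorter series left out of some alternatives, 127 lost neither where they were tested. The sign turned for *Dbp* without a time point term (-0.094) and as a ratio of arithmetic means (-0.10), where the daily peak weighs more, for *Mup3* in the first 24 hours (-0.028), and in the second 24 hours for *Mt1* (-0.093), *Mt2* (-0.045) and *Prlr* (-0.068), and the cause was not tested. Among the other lost calls were *Arntl*, *Per1* and *Nr1d1* with limma on time point means, *Ciart*, *Rgs16*, *Usp2* and *Wee1* without a time point term, *Dgat1* with GC correction (-0.0039, adjusted p = 0.938), *Acacb*, *Cyp2a4*, *Gstp1*, *Mogat1* and *Slc2a4* in the first 24 hours, and *Cyp2f2*, *Igf1* and *Ppp1r3g* in the second. Of the 6973 called genes, 3909 stayed called in 1 direction without each letter and in each 24 hours alone, and of the 359 that differed 2-fold 320 did.

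The median difference of all genes lay between 0.02 and 0.04 under 4 scalings, and 3 list medians near 0 (hepatokines, complex I and the TCA cycle) turned sign between them. Of 53 list medians, 9 turned sign with GC correction and 3 without the 6 libraries, all of them within 0.10 of 0. On simulated counts the test called 88% of genes changed by 1.5-fold and 16% of those changed by 1.1-fold. Only 50 genes were changed at each size there, while 6973 of 11123 were called here. The adjusted threshold was therefore stricter in the simulation, and its shares are not detection limits of this comparison. The comparison holds 1 table per genotype, and no batch within a genotype is given.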

Other observations

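Gene groups not described above had members on both sides. Their counts stand beside 32.8% of all genes higher and 29.9% lower. Of antioxidant genes under NRF2, 13 of 25 were higher and 6 lower (median log2 difference 0.13), and 9 higher and 7 lower without the 6 libraries that correlate least. *Txnrd1*, thioredoxin reductase, was higher (0.70 ± 0.05, adjusted p = 4.89e-21) and *Prdx5*, a mitochondrial and peroxisomal peroxiredoxin, lower (-0.81 ± 0.04, adjusted p = 6.86e-30). Genes of autophagy and the lysosome (11 of 42 higher, 19 lower, median -0.10) and of the peroxisome (14 of 42 higher, 19 lower, median -0.11) gave more lower than higher calls. Close to even were splicing factors (17 of 44 higher, 18 lower, median -0.06), respiratory complex I (15 of 35 higher, 15 lower, median -0.01), the other respiratory complexes (15 of 41 higher, 18 lower, median -0.07), translation factors (13 of 37 higher, 11 lower, median 0.02) and the TCA cycle (10 of 28 higher, 11 lower, median 0.00). Among stress lists there were heat shock chaperones (6 of 19 higher, 6 lower, median -0.06), ER chaperones (11 of 26 higher, 8 lower, median 0.03) and ATF4 targets (8 of 24 higher, 6 lower, median 0.16). Growth and damage lists gave immediate early genes (5 of 21 higher, 9 lower, median -0.03), cell cycle genes (4 of 24 higher, 3 lower, median 0.10) and p53 targets (4 of 14 higher, 5 lower, median -0.14). The rest were apolipoproteins (7 of 23 higher, 10 lower, median -0.06), hepatokines (6 of 21 higher, 5 lower, median -0.01), heme genes (4 of 14 higher, 6 lower, median -0.10), iron genes (6 of 19 higher, 4 lower, median 0.10), ribosome biogenesis (13 of 34 higher, 8 lower, median 0.08) and actin and tubulin genes (10 of 29 higher, 13 lower, median -0.08). The medians of heat shock, apolipoprotein, hepatokine, iron and actin genes and of the respiratory complexes past the first changed sign with GC correction, and those of cell cycle genes, hepatokines and the TCA cycle without the 6 libraries.

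Rows in 1 table only were not tested. The *Per1,2-/-* table held 650 symbols that the WT table lacked, 19 of them with a mean of at least 5 counts, and the WT table held 201 that the *Per1,2-/-* table lacked, 2 with such a mean. The 2 were *Loxl4* and *Npas2*, the paralog of *Clock*. *Npas2* held 0 to 27 counts (mean 5.35) in WT, above 0 in 30 of 48 libraries.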
